A study of Mus musculus with 6 samples.

Results

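Transcripts of white fat cells and of lipid synthesis were followed in the thoracic aorta of mice. The set was given as 35 gene symbols, and a probe of these genes was kept where its detection p was under 0.01 on at least 2 of the 6 Illumina bead arrays. This left 35 of 48 named probes, for 27 of the 35 genes, among 16749 probes and 9837 genes kept in all. Fabp4, Cd36, Retn and Acaca had probes that were detected on none of the arrays, and Cebpa was detected on 1 array, so these 5 genes were not measured here. Cfd, Acsl1 and Adrb3 had no probe under these names in the annotation used.

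TG SM-CaMKIIN mice (TG) carry a peptide inhibitor of the kinase CaMKII, expressed in smooth muscle only, and wild-type littermates (WT) share the C57Bl/6 background. From 12 weeks of age, minipumps delivered angiotensin II (Ang-II), a vasoconstrictor hormone, at 1.25 ug/kg/min in 0.9% saline, or 0.9% saline alone, for 14 days. The arrays comprised 2 of TG Ang-II, 1 of TG saline, 2 of WT Ang-II and 1 of WT saline, each group made from 5 mice whose RNA was pooled. The paired Ang-II arrays are titled as biological replicates, without saying which of the mice went into which array. A p-value here therefore reflects only array-to-array spread, possibly technical, and takes the single saline arrays to vary as much as the replicated groups. The design asks whether the transcripts that Ang-II changes in the aorta depend on CaMKII of smooth muscle.

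Fat cells store fatty acids as triacylglycerol in a droplet coated by perilipins. The fatty acids are taken from circulating lipoproteins by lipoprotein lipase or made from citrate, joined to glycerol 3-phosphate by acyltransferases, and released again by lipases. The nuclear receptor PPARgamma drives the program, and the mature cell secretes adiponectin and leptin. The aorta of the mouse is surrounded by perivascular fat, which around the thoracic part resembles brown fat, a tissue that burns lipid for heat and shares most of these genes with white fat. In a bulk sample, fewer cells of a type and less RNA per cell cannot be told apart.

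Of the markers used to check the cell type, Adipoq, Lep, Plin1 and Cidec were detected on all 6 arrays, Retn was not detected and Cfd had no named probe. From a further list of general or white fat cell genes, Nnat, Hoxc8, Hoxc9 and Lgals12 were not kept. Brown fat markers were present beside the shared ones: Ucp1, the uncoupling protein of brown fat, had log2 signals of 10.59 and 10.64 in TG Ang-II, 10.46 in TG saline, 11.62 and 11.76 on the WT Ang-II arrays and 8.93 in WT saline. The genes are therefore described below as fat cell and lipid synthesis genes, without assigning them to white fat. All 8 smooth muscle markers of the labelled tissue were measured.

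The promoters of 4 of the genes are printed because their transcripts show the main order of the arrays (Adipoq, Plin1, Pnpla3) or depart from it (Lep). They are RefSeq sequences on build GRCm38.p6, 250 bases before to 50 after the start, 5′ to 3′ on the gene's strand, in lower case, with matches to the motifs searched in capitals. The motifs, searched on both strands, were the TATA box TATAAA, the box CCAAT, the GC box GGGCGG, the E-box CACGTG, the C/EBP motif TTGCNNAA and the nuclear receptor motif AGGTCA. Lep lies at chr6:29059971-29060270 on the plus strand, Adipoq at chr16:23146286-23146585 on the plus strand, Plin1 at chr7:79732727-79733026 on the minus strand and Pnpla3 at chr15:84167566-84167865 on the plus strand.
Adipoq: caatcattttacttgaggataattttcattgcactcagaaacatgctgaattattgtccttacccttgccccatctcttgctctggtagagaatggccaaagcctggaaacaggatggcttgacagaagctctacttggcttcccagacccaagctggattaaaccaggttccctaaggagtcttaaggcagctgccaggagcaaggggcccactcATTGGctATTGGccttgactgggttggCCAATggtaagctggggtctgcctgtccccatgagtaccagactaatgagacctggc
Plin1: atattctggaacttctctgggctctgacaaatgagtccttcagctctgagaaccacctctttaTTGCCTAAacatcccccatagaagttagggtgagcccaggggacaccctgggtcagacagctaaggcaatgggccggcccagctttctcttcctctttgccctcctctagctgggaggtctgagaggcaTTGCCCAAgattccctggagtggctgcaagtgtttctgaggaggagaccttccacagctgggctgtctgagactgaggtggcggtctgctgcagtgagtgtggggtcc
Pnpla3: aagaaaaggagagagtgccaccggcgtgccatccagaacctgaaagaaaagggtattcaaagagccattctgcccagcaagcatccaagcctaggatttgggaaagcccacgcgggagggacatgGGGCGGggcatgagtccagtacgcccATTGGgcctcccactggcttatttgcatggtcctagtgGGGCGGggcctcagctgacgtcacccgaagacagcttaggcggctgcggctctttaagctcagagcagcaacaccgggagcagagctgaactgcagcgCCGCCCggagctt
Lep: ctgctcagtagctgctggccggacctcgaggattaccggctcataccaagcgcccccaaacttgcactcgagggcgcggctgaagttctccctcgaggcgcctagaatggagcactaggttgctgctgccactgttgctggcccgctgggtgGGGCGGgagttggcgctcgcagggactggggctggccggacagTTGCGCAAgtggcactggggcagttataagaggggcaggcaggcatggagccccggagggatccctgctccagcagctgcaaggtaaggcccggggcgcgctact
The Lep promoter held TTGCGCAA at 55 bases before the start and GGGCGG at 98. Plin1 held TTGCNNAA matches at 58 and 187 bases before the start, and Adipoq held CCAAT matches, in either orientation, at 7, 27 and 34. No capitals of different motifs overlapped in these 4 sequences. Promoters were in the table for 21 of the 27 measured genes (31 promoters). TTGCNNAA was in 5 of the 31, against 10.8% of all 32851 promoters, CCAAT in 14 against 37.4%, GGGCGG in 16 against 35.7%, AGGTCA in 7 against 16.3%, CACGTG in 4 against 7.15% and TATAAA in 2 against 13.6%. These matches describe letters in a window and are not sites of binding.

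Levels are given as background-corrected, quantile-normalized log2 signals, on which a step of 1 is a 2-fold change and values of different probes have no common scale. The lowest signal detected on an array was 5.54 to 5.69. Probes of the set carried 21 to 69 beads per array, and the standard error over the beads had a median of 5.49% of the intensity. Genes are represented by their brightest probe.

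Most of the genes were highest in WT Ang-II and lowest in WT saline, with both TG groups between. Both WT Ang-II arrays lay above the other 4 arrays for 25 of the 35 probes, against 13.0% of all probes. The WT saline array lay below the other 5 for 22 of the 35, against 18.2% of all probes. Both WT Ang-II arrays were above the WT saline array for 31 of the 35 (36.9% of all probes). In 17 probes, of 14 genes, the WT Ang-II arrays were the highest and the WT saline array the lowest, against 4.57% of all probes. The summed linear signal of the 27 genes, in which brighter probes weigh more, was 59301 and 59569 in TG Ang-II, 51611 in TG saline, 80258 and 80160 on the WT Ang-II arrays and 39789 in WT saline. The mean of the centred log2 values was -0.11 and -0.07 in TG Ang-II, -0.14 in TG saline, 0.52 and 0.51 on the WT Ang-II arrays and -0.72 in WT saline. Of the 27 genes, 12 followed the mean profile of the others over the 6 arrays with Pearson r over 0.9, led by Agpat2 (0.99), Gpd1 (0.99) and Plin1 (0.99). Lep (0.44), Sncg (0.17), Plin4 (-0.59) and Rbp4 (-0.67) lay under 0.5. These correlations rest on 6 arrays in 4 groups and are descriptions.

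**Figure D1:**
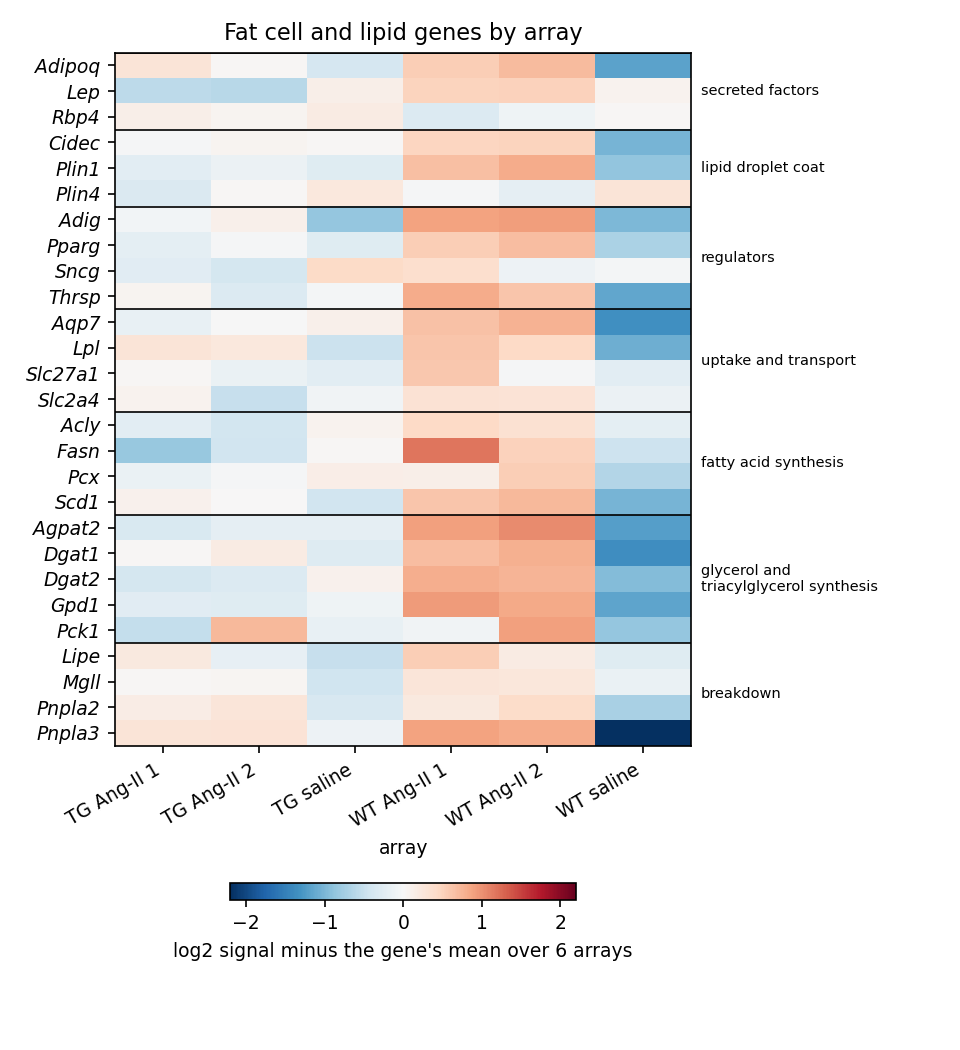
Log2 signal of each of the 27 genes minus its mean over the 6 arrays (colour), with genes in rows by role and arrays in columns. The WT Ang-II columns are mostly red and the WT saline column mostly blue, where Pnpla3 is the darkest cell, while Plin4 and Rbp4 show no such order.

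In WT aorta, Ang-II raised 20 of the 35 probes and lowered 0 (limma, adjusted p under 0.05), against 6.35% of all probes that rose and 2.72% that fell. At an unadjusted p under 0.05, 26 were higher and 0 lower. By gene, 16 of 27 rose, against 6.09% of all genes, and the median difference over the probes was 1.31 on the log2 scale, against -0.05 over all probes. Rises were called for 1 of 3 probes of secreted factors, 2 of 3 of the droplet coat, 4 of 6 of the regulators, 4 of 6 of uptake and transport, 2 of 4 of fatty acid synthesis, 5 of 7 of glycerol and triacylglycerol synthesis and 2 of 6 of breakdown. Repeat probes of a gene count separately here. Aqp7 held 3 of the uptake and transport probes, Mgll held 3 of the breakdown probes, and Pparg, Sncg, Pck1 and Agpat2 held 2 each. The call count was 12 without the first WT Ang-II array and 10 without the second. Of all called probes in this comparison 70.0% were rises, and 55.8% with quantile normalization without background correction.

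The largest difference among the 27 genes was that of Pnpla3, which encodes adiponutrin, a lipid droplet protein of the lipase family. Pnpla3 had log2 signals of 8.81 and 8.84 in TG Ang-II, 8.42 in TG saline, 9.42 and 9.34 on the WT Ang-II arrays and 6.34 in WT saline. The WT saline array stood well below the other 5, and Pnpla3 rose 8.22-fold in WT (log2 3.04 ± 0.15 SE, adjusted p = 0.00262).

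Of the 5 genes of glycerol and triacylglycerol synthesis, 4 rose in WT by their brightest probe. Gpd1, which makes glycerol 3-phosphate, had log2 signals of 8.56 and 8.55 in TG Ang-II, 8.73 in TG saline, 9.76 and 9.66 on the WT Ang-II arrays and 7.66 in WT saline. Agpat2, an acyltransferase of the next steps, had 8.95 and 9.10 in TG Ang-II, 9.09 in TG saline, 10.20 and 10.33 on the WT Ang-II arrays and 8.08 in WT saline. In both genes the 3 TG arrays lay close together, between the WT arrays. Gpd1 rose 4.15-fold in WT (2.05 ± 0.15, adjusted p = 0.00405) and Agpat2 rose 4.55-fold (2.18 ± 0.16, adjusted p = 0.00405). The dimmer Agpat2 probe did not pass in WT (1.51 ± 0.35, adjusted p = 0.0535). Dgat1 had log2 signals of 7.33 and 7.48 in TG Ang-II, 7.01 in TG saline, 7.97 and 8.08 on the WT Ang-II arrays and 5.94 in WT saline. Dgat1 and Dgat2, the enzymes of the last step, rose by 2.09 ± 0.16 (adjusted p = 0.0042) and 1.73 ± 0.15 (adjusted p = 0.0051). Dgat2 had log2 signals of 10.70 and 10.79 in TG Ang-II, 11.19 in TG saline, 11.89 and 11.85 on the WT Ang-II arrays and 10.14 in WT saline. Here the TG saline array was above both TG Ang-II arrays. Pck1, which supplies glycerol 3-phosphate in fat from pyruvate, was uneven between replicates: its brightest probe gave 6.31 and 7.55 in TG Ang-II, 6.68 in TG saline, 6.76 and 7.74 on the WT Ang-II arrays and 6.00 in WT saline, and it did not pass in WT (1.25 ± 0.59, adjusted p = 0.234). Its second probe was not well above background in WT saline and rose at least 3.18-fold (adjusted p = 0.0122).

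Among the secreted factors only Adipoq, which encodes adiponectin, passed in WT. Adipoq had log2 signals of 12.15 and 11.89 in TG Ang-II, 11.50 in TG saline, 12.42 and 12.57 on the WT Ang-II arrays and 10.70 in WT saline. Within each genotype both Ang-II arrays lay above the saline array, and the rise in WT was 3.47-fold (1.79 ± 0.18, adjusted p = 0.00715). Lep, which encodes leptin, differed by 0.42 ± 0.15 in WT (adjusted p = 0.136) and Rbp4, a retinol carrier that fat cells also secrete, by -0.23 ± 0.17 (adjusted p = 0.424).

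Of the droplet coat genes, Plin1, which guards stored lipid from lipases, rose by 1.61 ± 0.16 (adjusted p = 0.00689) and Cidec, which fuses droplets, by 1.50 ± 0.15 (adjusted p = 0.00688) in WT. Plin1 had log2 signals of 6.88 and 6.99 in TG Ang-II, 6.85 in TG saline, 7.78 and 7.94 on the WT Ang-II arrays and 6.24 in WT saline, and Cidec had 9.81 and 9.90 in TG Ang-II, 9.85 in TG saline, 10.30 and 10.32 on the WT Ang-II arrays and 8.81 in WT saline. For both genes the 3 TG arrays lay between the WT saline array and the WT Ang-II arrays. Plin4, another perilipin, was 12.79 and 13.14 in TG Ang-II, 13.35 in TG saline, 13.08 and 12.91 on the WT Ang-II arrays and 13.39 in WT saline, with each saline array above both Ang-II arrays of its genotype. It did not pass in WT (-0.39 ± 0.20, adjusted p = 0.275).

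Pparg, the gene of PPARgamma, had log2 signals of 9.05 and 9.23 in TG Ang-II, 8.99 in TG saline, 9.81 and 9.94 on the WT Ang-II arrays and 8.56 in WT saline, with the 3 TG arrays between the WT groups. It rose by 1.31 ± 0.17 (adjusted p = 0.0122) in WT, and its dimmer probe, not well above background in WT saline, rose at least 1.89-fold (adjusted p = 0.035). Adig, which encodes the fat cell protein adipogenin, had log2 signals of 9.03 and 9.20 in TG Ang-II, 8.24 in TG saline, 9.98 and 10.01 on the WT Ang-II arrays and 8.11 in WT saline. Its TG saline and WT saline arrays were the 2 lowest, and Adig rose by 1.89 ± 0.16 in WT (adjusted p = 0.005). Thrsp, whose product is tied to the induction of lipogenic enzymes, had 9.21 and 8.86 in TG Ang-II, 9.11 in TG saline, 9.97 and 9.77 on the WT Ang-II arrays and 8.02 in WT saline. The TG arrays lay between the WT groups, and Thrsp rose by 1.85 ± 0.21 (adjusted p = 0.00897). Sncg, a synuclein that white fat cells express, differed by 0.16 ± 0.23 (adjusted p = 0.691).

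Of the uptake genes, Lpl, which encodes lipoprotein lipase, had log2 signals of 13.44 and 13.40 in TG Ang-II, 12.68 in TG saline, 13.77 and 13.61 on the WT Ang-II arrays and 12.08 in WT saline. All 4 Ang-II arrays were above both saline arrays, and Lpl rose by 1.61 ± 0.16 in WT (adjusted p = 0.0067). Aqp7, the glycerol channel of fat cells, had 7.10 and 7.26 in TG Ang-II, 7.36 in TG saline, 7.90 and 8.02 on the WT Ang-II arrays and 5.91 in WT saline. The TG arrays again lay between the WT groups, and Aqp7 rose in WT by 2.05 ± 0.16 (adjusted p = 0.00433) on its brightest probe, and its other 2 probes also rose. Slc27a1, a fatty acid transporter, and Slc2a4, the insulin-responsive glucose transporter, did not pass (0.53 ± 0.27, adjusted p = 0.276, and 0.44 ± 0.26, adjusted p = 0.32). Slc27a1 had 8.36 and 8.19 in TG Ang-II, 8.10 in TG saline, 8.93 and 8.31 on the WT Ang-II arrays and 8.09 in WT saline, where 1 WT Ang-II array stood above the other 5. Slc2a4 had 6.80 and 6.22 in TG Ang-II, 6.66 in TG saline, 7.05 and 7.03 on the WT Ang-II arrays and 6.60 in WT saline, with a TG Ang-II array the lowest.

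In fatty acid synthesis, Scd1, the desaturase that makes monounsaturated fatty acids, had log2 signals of 13.74 and 13.66 in TG Ang-II, 13.23 in TG saline, 14.26 and 14.37 on the WT Ang-II arrays and 12.62 in WT saline. It rose 3.23-fold in WT (1.69 ± 0.16, adjusted p = 0.00531), where the WT Ang-II arrays were the highest of the 6. Pcx, which makes oxaloacetate for citrate export, had 6.50 and 6.63 in TG Ang-II, 6.79 in TG saline, 6.77 and 7.18 on the WT Ang-II arrays and 6.01 in WT saline. Its TG saline array was level with 1 WT Ang-II array, and Pcx rose in WT by 0.97 ± 0.21 (adjusted p = 0.0492). Fasn, the fatty acid synthase, had 5.51 and 5.93 in TG Ang-II, 6.37 in TG saline, 7.52 and 6.86 on the WT Ang-II arrays and 5.88 in WT saline, and did not pass in WT (1.31 ± 0.32, adjusted p = 0.0609). Acly, which releases acetyl-CoA from citrate, did not pass either (0.60 ± 0.16, adjusted p = 0.079). Breakdown genes other than Pnpla3 differed less. Pnpla2, the lipase of the first step, had 12.73 and 12.83 in TG Ang-II, 12.21 in TG saline, 12.79 and 12.98 on the WT Ang-II arrays and 11.86 in WT saline. All 4 Ang-II arrays were above both saline arrays, and Pnpla2 rose in WT by 1.02 ± 0.17 (adjusted p = 0.0233), while Mgll, the monoacylglycerol lipase, and Lipe, the hormone-sensitive lipase, did not pass (adjusted p = 0.149 and 0.173). Mgll differed by 0.41 ± 0.15, and Lipe, not well above background in WT saline, was at least 1.39-fold higher in WT Ang-II. Lipe had 5.96 and 5.56 in TG Ang-II, 5.24 in TG saline, 6.29 and 5.92 on the WT Ang-II arrays and 5.48 in WT saline, and was detected on 1 of the 2 TG Ang-II arrays, on both WT Ang-II arrays and on neither saline array.

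**Figure D2:**
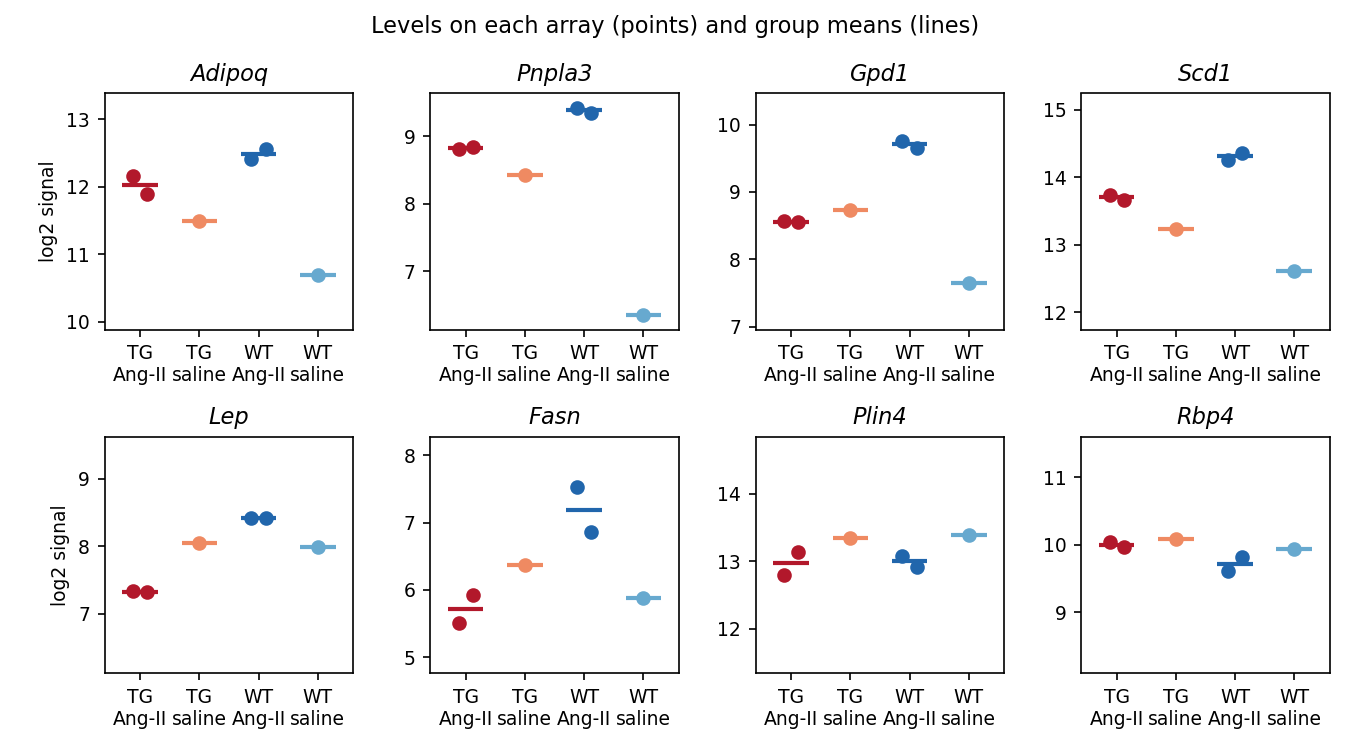
Log2 signal (vertical axis, each panel spanning 3.5) of 8 genes on each array, with points for arrays and lines for group means. Adipoq, Pnpla3, Gpd1 and Scd1 are highest in WT Ang-II and lowest in WT saline, the group means of Lep and Fasn are lowest in TG Ang-II, and the groups of Plin4 and Rbp4 lie close together.

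In TG aorta, also with 2 Ang-II arrays against 1 saline array, 3 of the 35 probes were called: 2 rose, against 5.84% of all probes, and 1 fell, against 1.73%. The median difference was -0.06 on the log2 scale, equal to the -0.06 of all probes. Adig had log2 signals of 9.03 and 9.20 in TG Ang-II, against 8.24 in TG saline, and rose by 0.87 ± 0.16 (adjusted p = 0.0349). A dim Aqp7 probe rose by 0.80 ± 0.16 (adjusted p = 0.0403), while the brightest Aqp7 probe differed by -0.19 ± 0.16 (adjusted p = 0.538). Lep had 7.34 and 7.32 in TG Ang-II, against 8.05 in TG saline, and fell by 0.72 on the log2 scale (SE 0.15, adjusted p = 0.0459). Both TG Ang-II arrays lay above the TG saline array for 15 of the 35 probes (33.7% of all probes) and below it for 13 (46.1% of all probes). The 3 calls were 0 with any 1 Ang-II array of either genotype left out, 0 with a detection p under 0.05 on 2 arrays and 11 with a trended prior.

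Averaged over both genotypes, 19 of the 35 probes rose under Ang-II and 0 fell, against 11.6% and 7.55% of all probes. At an unadjusted p under 0.05, 2 probes were lower. By gene, 16 of 27 rose and 0 fell, against 10.4% and 7.01% of all genes. Pnpla3 (1.72 ± 0.11, adjusted p = 0.00228), Adig (1.38 ± 0.11, adjusted p = 0.00319), Lpl (1.17 ± 0.11, adjusted p = 0.00376) and Pnpla2 (0.80 ± 0.12, adjusted p = 0.0106) were among those that rose. Lpl and Pnpla2 were also higher on both TG Ang-II arrays than on the TG saline array, by 0.74 ± 0.16 (adjusted p = 0.0528) and 0.57 ± 0.17 (adjusted p = 0.106).

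The difference between the genotypes' responses was tested itself, as the TG response minus the WT response. It was called as negative for 8 of the 35 probes and as positive for 0, against 0.478% and 0.710% of all probes, and the median over the 35 was -1.19, against -0.01. At an unadjusted p under 0.05, 25 were negative and 0 positive. The 8 probes belonged to 7 genes of the droplet coat, glycerol transport, triacylglycerol synthesis and, for Pnpla3, breakdown: Pnpla3 (-2.63 ± 0.21, adjusted p = 0.011), Agpat2 (-2.25 ± 0.23, adjusted p = 0.0209), Aqp7 by its brightest probe (-2.24 ± 0.23, adjusted p = 0.0209), Gpd1 (-2.23 ± 0.22, adjusted p = 0.0185), Dgat2 (-2.17 ± 0.22, adjusted p = 0.0198), Dgat1 (-1.69 ± 0.23, adjusted p = 0.0405) and Cidec (-1.50 ± 0.21, adjusted p = 0.0481). Of these genes, Pnpla3, Dgat1 and Cidec did not pass between TG and WT under Ang-II alone. Their genotypes differed more between the single saline arrays. The eighth probe, a dim one of Aqp7, was not well above background in WT saline, so its fitted value of -1.75 ± 0.22 (adjusted p = 0.0331) is not a measured size, and with the lowest detected signal in place of its WT saline value the difference was -0.99. The dimmer Agpat2 probe (-2.22 ± 0.49, adjusted p = 0.127) and the remaining Aqp7 probe (-2.14 ± 0.37, adjusted p = 0.0715) did not pass. Nor did Adipoq (-1.27 ± 0.26, adjusted p = 0.106), Lep (-1.14 ± 0.21, adjusted p = 0.0842) and Fasn (-1.96 ± 0.45, adjusted p = 0.138). Without either WT Ang-II array the count was 0, and it was 22 with a trended prior.

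**Figure D3:**
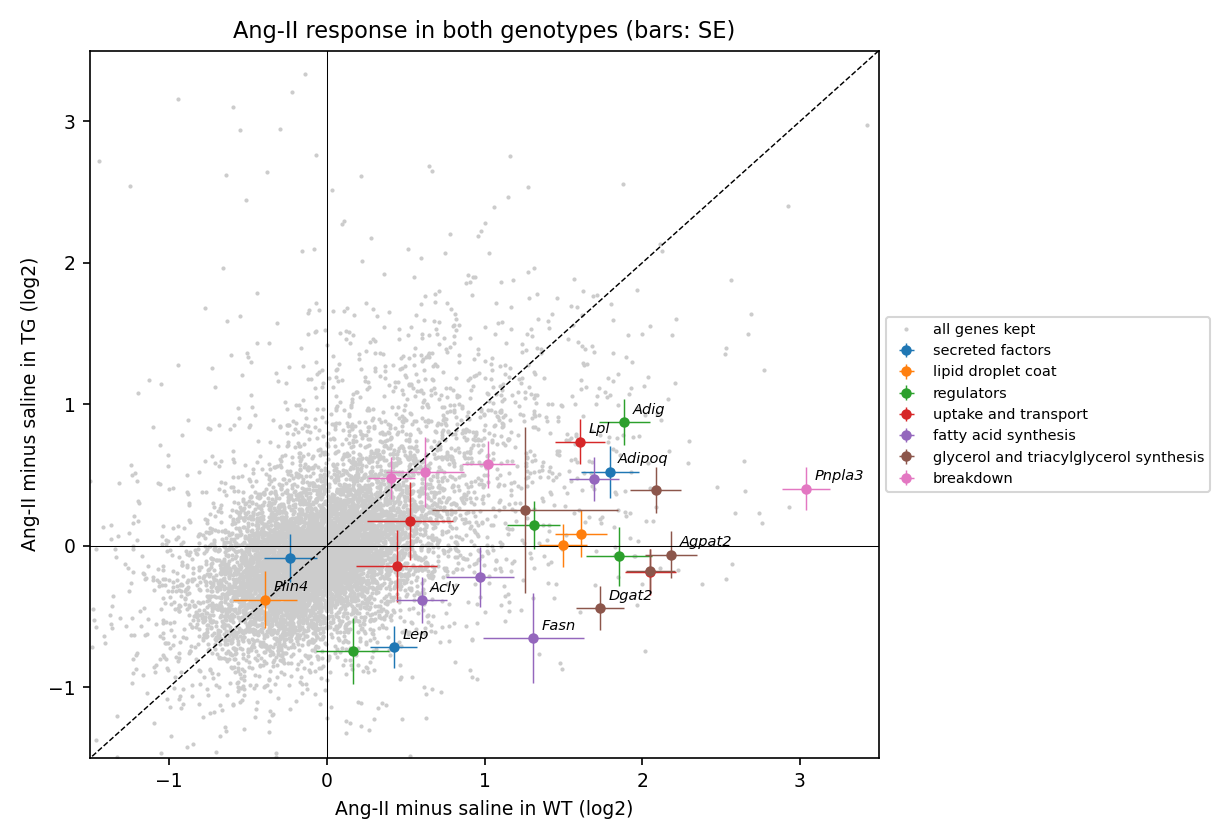
Ang-II minus saline in TG (vertical) against WT (horizontal), in log2, for all genes kept (grey) and the 27 genes (coloured by role, bars are SE), with the line of equal responses dashed and points beyond the axes not drawn. Most coloured points lie right of the dashed line, between 1 and 3 on the WT axis and near 0 on the TG axis, with Pnpla3 farthest right at 3.04.

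Under Ang-II, 13 of the 35 probes were lower in TG than in WT and 0 were higher, against 2.55% and 2.73% of all probes. At an unadjusted p under 0.05, 22 were lower and 0 higher. The median difference was -0.56, against -0.01, and both TG Ang-II arrays lay below both WT Ang-II arrays for 28 of the 35 probes, against 27.8% of all probes. Fasn was lower by 1.47 ± 0.26 on the log2 scale, that is 2.77-fold (adjusted p = 0.036), with 1 of the 2 TG Ang-II arrays above the detection threshold. Agpat2 was 2.36-fold lower (-1.24 ± 0.13, adjusted p = 0.00864), Gpd1 2.22-fold (-1.15 ± 0.12, adjusted p = 0.00857), Dgat2 2.18-fold (-1.12 ± 0.12, adjusted p = 0.00913) and Lep 2.13-fold (-1.09 ± 0.12, adjusted p = 0.00905). The dimmer Agpat2 probe gave the largest difference of the 35 probes (-1.71 ± 0.28, adjusted p = 0.0302). Plin1 (-0.92 ± 0.13, adjusted p = 0.0198), Adig (-0.88 ± 0.13, adjusted p = 0.021), Aqp7 (-0.78 ± 0.13, adjusted p = 0.0328), Pparg (-0.73 ± 0.14, adjusted p = 0.044) and Acly (-0.70 ± 0.13, adjusted p = 0.0446) were lower too. Dgat1 (-0.62 ± 0.13, adjusted p = 0.0584), Pnpla3 (-0.56 ± 0.12, adjusted p = 0.0639) and Cidec (-0.46 ± 0.12, adjusted p = 0.101) did not pass. Of the 6 breakdown probes 0 passed, with 1 at an unadjusted p under 0.05, and their median was -0.20, against -1.12 over the 7 probes of glycerol and triacylglycerol synthesis. These medians count repeat probes of a gene separately. Of the 6, 3 were probes of Mgll (-0.22, -0.18 and -0.08), beside Pnpla3, Lipe (-0.35) and Pnpla2 (-0.10). The 7 held 2 probes each of Pck1 and Agpat2. The count was 0 without either WT Ang-II array, 6 without the first TG Ang-II array and 9 without the second.

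Acly had log2 signals of 12.33 and 12.16 in TG Ang-II, 12.63 in TG saline, 12.99 and 12.90 on the WT Ang-II arrays and 12.35 in WT saline. Lep had 8.42 and 8.43 on the WT Ang-II arrays and 7.998 in WT saline, beside the TG values above. For Acly, Fasn and Lep a TG Ang-II array, not the WT saline array, held the lowest value.

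Under saline, with 1 TG array against 1 WT array, the order was the opposite: 31 of the 35 probes were higher in TG, against 49.6% of all probes, with a median of 0.60 against 0.00. Only Pnpla3 passed, 4.21-fold higher in TG (2.08 ± 0.17, adjusted p = 0.0304), which is 1 of 35 probes, against 0.101% of all probes higher and 0.0836% lower. With p unadjusted and under 0.05, 18 were higher and 0 lower. Aqp7 (1.46 ± 0.19, adjusted p = 0.0649), Gpd1 (1.08 ± 0.18, adjusted p = 0.0991), Dgat1 (1.07 ± 0.19, adjusted p = 0.106), Dgat2 (1.05 ± 0.18, adjusted p = 0.101) and Cidec (1.04 ± 0.18, adjusted p = 0.103) missed the threshold. Lep (0.05 ± 0.17, adjusted p = 0.941) and Adig (0.13 ± 0.19, adjusted p = 0.822) were near equal on the 2 arrays. The saline arrays have no replicate, and the count was 0 without either WT Ang-II array, through the shared estimate of the spread, and 13 with a trended prior.

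**Figure D4:**
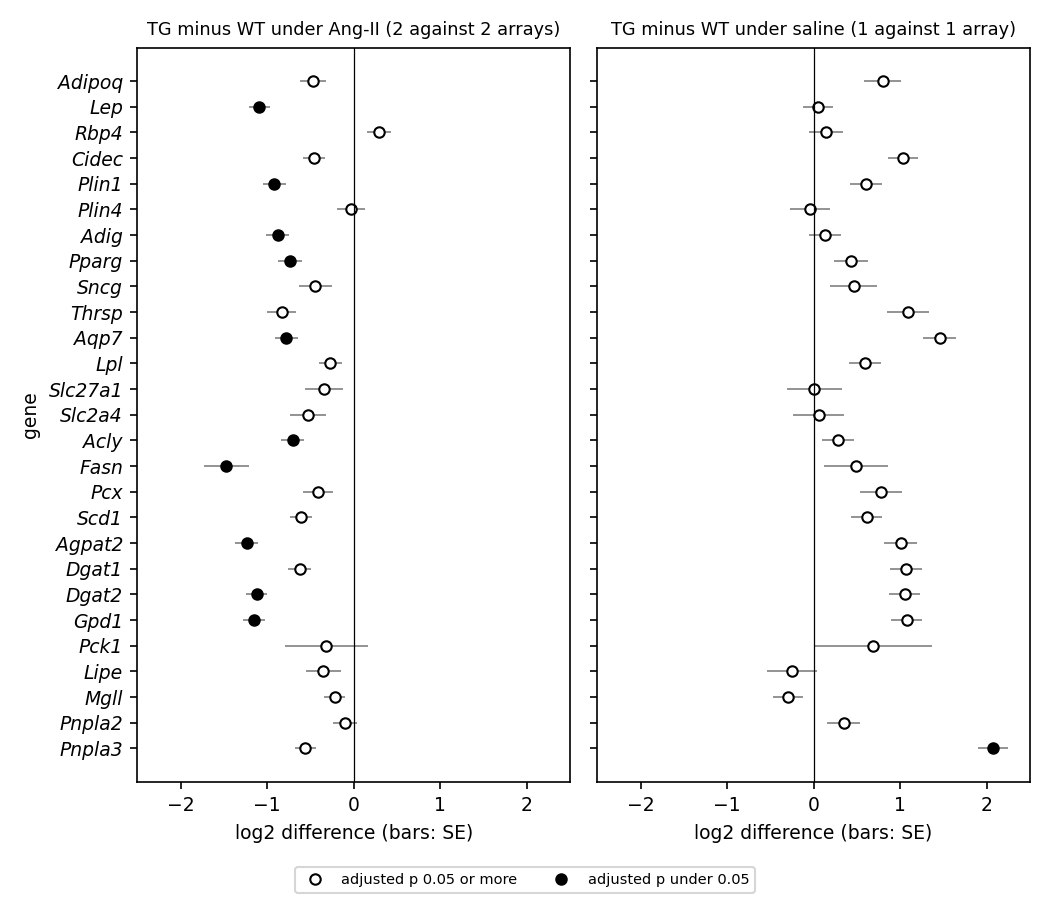
TG minus WT log2 difference of the 27 genes under Ang-II (left) and under saline (right), with SE bars and filled points for an adjusted p under 0.05. The left panel lies mostly below 0 with 10 filled genes, and the right panel mostly above 0 with Pnpla3 filled at 2.08.

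Of the 6 genes with more than 1 kept probe, Agpat2, Pparg and Mgll had probes that differed in the group of the lowest array. The 2 Pck1 probes differed in whether both WT Ang-II arrays lay above the other 4. The 3 Aqp7 probes were all highest in WT Ang-II and lowest in WT saline, as was the brighter Agpat2 probe. The dimmer Agpat2 probe had log2 signals of 7.78 and 7.01 in TG Ang-II, 8.10 in TG saline, 9.31 and 8.90 on the WT Ang-II arrays and 7.59 in WT saline, so that 1 TG Ang-II array was the lowest of the 6. The dimmer Pparg probe, near the lowest detected signal, had 5.30 and 5.80 in TG Ang-II, 6.26 in TG saline, 6.55 and 6.55 on the WT Ang-II arrays and 5.34 in WT saline, so that 1 TG Ang-II array and the WT saline array were about equal. The brightest Pck1 probe had its higher TG Ang-II value on the second array, while its other probe had 6.77 and 6.32 in TG Ang-II, 6.74 in TG saline, 7.27 and 7.33 on the WT Ang-II arrays and 5.61 in WT saline. The 2 Sncg probes were highest in TG saline, at 9.72 and 8.79. Mgll was 11.27 and 11.29 in TG Ang-II, 10.80 in TG saline, 11.52 and 11.48 on the WT Ang-II arrays and 11.09 in WT saline, and its other 2 probes spanned less. Rbp4 was 10.04 and 9.96 in TG Ang-II, 10.09 in TG saline, 9.60 and 9.82 on the WT Ang-II arrays and 9.94 in WT saline, with both WT Ang-II arrays below the other 4.

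Other lipid genes followed the same order in part. Of 39 measured lipid pathway genes outside the set, 15 rose and 1 fell in WT under Ang-II, against the same 6.09% and 2.63% of all genes that fell, with a median of 0.41. In TG 4 rose and 0 fell, against 5.23% and 1.56% of all genes, and at an unadjusted p under 0.05, 9 were higher and 4 lower. Elovl6, which elongates palmitate, had log2 signals of 7.63 and 7.53 in TG Ang-II, 8.32 in TG saline, 9.59 and 9.37 on the WT Ang-II arrays and 7.46 in WT saline. It rose by 2.02 ± 0.17 in WT (adjusted p = 0.005) and was lower in TG than in WT under Ang-II by 1.89 ± 0.14 on the log2 scale (adjusted p = 0.00255). Gpihbp1, which anchors lipoprotein lipase to capillaries, rose in TG by 1.30 ± 0.19 (adjusted p = 0.0192) and in WT by 1.94 ± 0.19 (adjusted p = 0.00648). Between TG and WT under Ang-II, 1 of the 39 was higher and 6 were lower, against 3.02% and 2.33% of all genes. The 1 higher in TG was Me1, which was not well above background on the WT Ang-II arrays. Srebf1, the gene of the transcription factor SREBP-1 that drives fatty acid synthesis, was lower by 1.42 ± 0.19 (adjusted p = 0.0153), with 6.98 and 6.92 in TG Ang-II, 7.60 in TG saline, 8.61 and 8.13 on the WT Ang-II arrays and 8.07 in WT saline. Acss2, which makes acetyl-CoA from acetate, was lower by 1.23 ± 0.12 (adjusted p = 0.00707). Of 15 further general or white fat cell genes, 6 rose and 1 fell in WT, against 6.09% and 2.63% of all genes. By sign 9 of the 15 were higher and 6 lower, with differences from -0.90 to 2.65. At an unadjusted p under 0.05, 8 were higher and 2 lower. The rises were led by Apoc1, a lipoprotein component (2.65 ± 0.17, adjusted p = 0.00358), Orm1, an acute-phase protein (2.47 ± 0.15, adjusted p = 0.00352), and Car3, a carbonic anhydrase abundant in fat (1.98 ± 0.17, adjusted p = 0.00503). In TG 0 of the 15 passed, against 5.23% of all genes that rose and 1.56% that fell, with 3 higher and 0 lower at p under 0.05 before adjustment. Of 17 fatty acid oxidation genes, 0 rose in TG and 6 rose in WT, against 5.23% and 6.09% of all genes. In TG 0 fell, against 1.56% of all genes, and in WT 0 fell, against 2.63%. Where the p is not adjusted, 0 were higher and 2 lower in TG. With so few genes, a count of 0 in TG is near the share of all genes.

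Brown fat genes showed the order of the set as well. In WT, 9 of 12 rose and 0 fell, against 6.09% and 2.63% of all genes, and 1 was lower with an unadjusted p under 0.05. The median was 1.62. Ucp1 rose by 2.76 ± 0.16 (adjusted p = 0.00337), Slc27a2 by 2.53 ± 0.16 (adjusted p = 0.00352) and Cpt1b, which admits fatty acids to mitochondria, by 2.30 ± 0.16 (adjusted p = 0.00391). In TG, 2 of 12 rose, against 5.23% of all genes: Fabp3 (1.44 ± 0.16, adjusted p = 0.00936) and Cox7a1 (0.77 ± 0.15, adjusted p = 0.0428). Fabp3, Cox7a1, Cox8b and Cpt1b are also expressed in heart muscle, and of these Cox8b and Cpt1b were not called in TG. The part of heart muscle content in the differences of the brown fat genes was not tested. The TG response minus the WT response was called as negative for 4 brown fat genes and as positive for 0, against 0.539% and 0.722% of all genes (7 and 1 at an unadjusted p under 0.05): Slc27a2 (-2.77 ± 0.22), Ucp1 (-2.60 ± 0.22), Cidea (-2.02 ± 0.21) and Cox8b (-1.47 ± 0.21).

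The 10 genes outside the set whose profile over the 6 arrays was most like its mean, among genes spanning at least 1, were Hba-a1 (Pearson r 0.999), Hbb-bt, Prxl2a, Retsat, Hbb-bs, Cidea, 1700037H04Rik, Hcar1, Lncbate10 and Orm1. Of these, 3 are globin genes of red cells. All 5 measured red cell genes rose in WT, against 6.09% of all genes. All 5 were also called lower in TG than in WT under Ang-II, against 2.33% of all genes. The TG response minus the WT response was called as negative for all 5, against 0.539% of all genes. Their summed linear signal was 47041 and 52162 in TG Ang-II, 43943 in TG saline, 92337 and 91526 on the WT Ang-II arrays and 24392 in WT saline. Macrophage markers (9 measured) summed to 9525 and 9701 in TG Ang-II, 4680 in TG saline, 10901 and 11997 on the WT Ang-II arrays and 5800 in WT saline, and so separated Ang-II from saline in both genotypes. Heart muscle markers (8 measured) summed to 16600 and 16015 in TG Ang-II, 2994 in TG saline, 2272 and 2420 on the WT Ang-II arrays and 4138 in WT saline. Smooth muscle markers summed to 89377 and 92284 in TG Ang-II, 94847 in TG saline, 82411 and 81768 on the WT Ang-II arrays and 101091 in WT saline, opposite in order to the fat cell genes within WT. Lpl, Slc2a4, Slc27a1 and Pnpla2 are also expressed in heart muscle. The part of the red cell, macrophage, heart muscle and smooth muscle content in the differences of the fat cell genes was not tested.

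**Figure D5:**
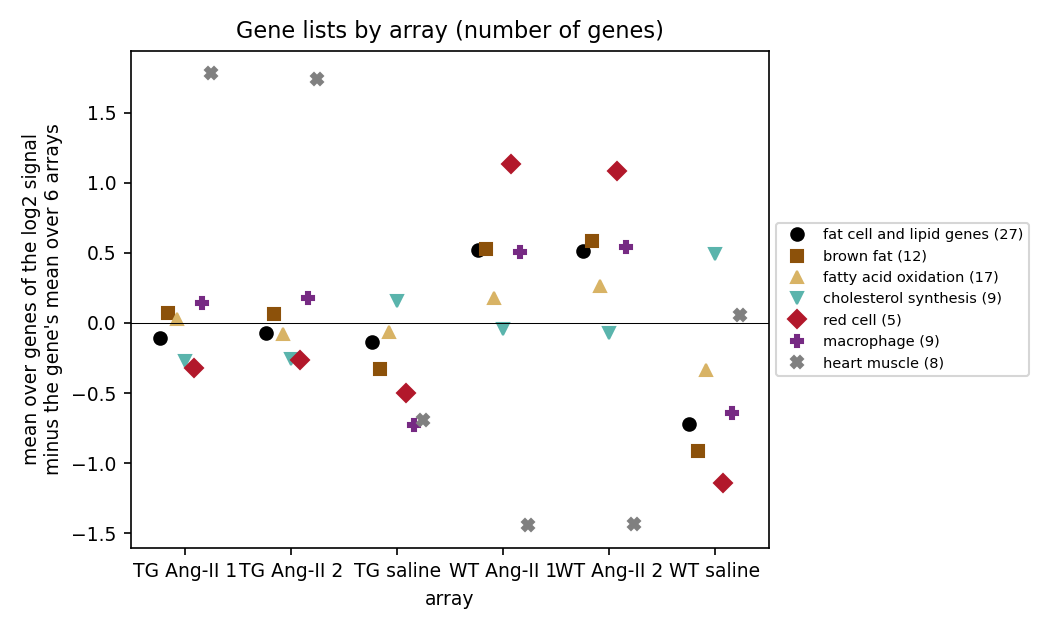
Mean over the genes of a list of the log2 signal minus each gene's mean over the 6 arrays (vertical axis), by array, for 7 lists. Fat cell, brown fat and red cell genes are highest on the WT Ang-II arrays and lowest on the WT saline array, while heart muscle genes are highest on the TG Ang-II arrays.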

How the data were processed

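Total RNA of thoracic aorta, pooled from 5 mice per group, was hybridised to 6 Illumina arrays. The deposited signal columns, per the file headers, hold mean bead intensities per probe, on a linear scale and not normalized, with detection p-values that the authors deposited beside them. The deposited value table holds log2 values, and these equal the log2 values computed here to within 4.9995652e-09. The submitters' processing notes name GenomeStudio 2011.1 and limma 3.22.1.

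The neqc function corrected the background through the detection p-values and normalized quantiles (limma 3.58.1, R 4.3.3, offset 16). Between 15393 and 16075 probes were detected per array, and the number of arrays limits the precision. Probes detected at p under 0.01 on 2 or more of the 6 arrays entered the fit. Symbols came from the platform annotation, updated by gene identifier through RefSeq (GRCm38.p6; 34807 probes found; 34885 probes have 1 symbol, 18 several and 10378 none). A model of 4 group means was fitted to all 6 arrays over all 16749 probes in limma (lmFit, eBayes with constant prior, 2 residual and 3.75 prior degrees of freedom), and p-values were adjusted by Benjamini-Hochberg over them, with calls at under 0.05. Where the dimmer group's arrays did not detect a gene, its fold is written as at least N-fold, computed against the higher of its own value and the lowest detected signal.

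The members and the comparison lists were chosen with earlier results of these data known, so their counts are set beside those of all probes and no list was tested. All kept member probes were named. Of other lists, up to 3 called genes with the largest differences per comparison were eligible, with 10 genes by likeness of profile to the members' mean. Numbered replicates are not known to pair arrays (correlation of deviations 0.115, with 2 pairs), so no block was used. Alternatives were normalization, offset, detection filter, prior, array weights, each array left out, a replicate block and, added after seeing the data, scaling to 1 median. The fit was tested on simulated data.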

Additional observations from a re-analysis of the deposited data

Results flagged for a closer look

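The TG response minus the WT response to Ang-II passed its own test for 8 probes of the set, all of them negative. On the log2 scale the values were -2.63 for Pnpla3, -2.25 for Agpat2, -2.24 for the brightest Aqp7 probe, -2.23 for Gpd1, -2.17 for Dgat2, -1.69 for Dgat1 and -1.50 for Cidec. A dim Aqp7 probe had a fitted value of -1.75, but it was not well above background in WT saline. With the lowest detected signal in place of that value its difference was -0.99, and its call was lost under 7 of 13 alternatives. Each value rests on 1 saline array per genotype, and without either WT Ang-II array 0 of the 8 passed. Pnpla3, Dgat1 and Cidec did not pass between TG and WT under Ang-II alone. The groups held at most 2 arrays, so no array could be tested as an outlier within its group.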

How the results depend on the processing

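No member probe reversed its called direction under any alternative run. Over the probes and alternatives, 802 calls held and 150 were lost, and 172 were gained against 1983 probes that stayed uncalled. The 19 calls of the average Ang-II response stayed within 1.5 times under every alternative. In WT (20 called) the count lay between 10 and 21 with 1 array left out. In TG (3 called) it was 0 with a detection p under 0.05, 0 without a detection filter, 0 with the replicate block, 5 with an offset of 50, 10 with quantile normalization without background correction, 11 with a trended robust prior and 0 to 0 with 1 array left out. For TG against WT under Ang-II (13 called) it was 6 without a filter, 20 with quantile normalization, 20 with the trended prior and 0 to 9 with 1 array left out. Under saline (1 called) it was 3 with scaling to 1 median (chosen after seeing the data), 6 with detection on all 6 arrays, 0 with a detection p under 0.05, 0 without a filter, 7 with an offset of 50, 10 with quantile normalization, 13 with the trended prior, 0 with the replicate block and 0 to 1 with 1 array left out. For the TG minus WT response (8 called) it was 5 with a detection p under 0.05, 3 without a filter, 12 with detection on all 6 arrays, 12 with scaling to 1 median, 18 with an offset of 50, 22 with quantile normalization, 22 with the trended prior and 0 to 8 with 1 array left out. Array weights, the deposited value table and a fit of only the 4 Ang-II arrays kept each count they were run on. Any replicate left out removes a residual degree of freedom and leaves the spread to the other genotype's pair of arrays. Several counts differed by which genotype's array was left out. The cause of these changes in the counts was not tested. Over all probes, WT calls numbered 1518, and 2939 with quantile normalization, 3015 with the trended prior and 781 without a filter. The replicate numbers do not pair the arrays by label, and with the replicate block the counts were 19 in WT, 14 between genotypes under Ang-II, 19 for the averaged response and 7 for the TG minus WT response. A BeadChip block was not run because the headers name no BeadChip. Arrays without replicates and dim probes limit what could be called.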

Other observations

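All 9 measured cholesterol synthesis genes had lower values in Ang-II than in saline, in TG (median -0.45, against -0.06 over all genes) and in WT (median -0.59, against -0.05). In WT, 1 of the 9 passed, against 2.63% of all genes that fell: Msmo1, an enzyme of the late pathway (-0.71 ± 0.15, adjusted p = 0.043). In TG 0 passed, against 1.56% of all genes that fell, with 3 lower at an unadjusted p under 0.05 (limma). Averaged over both genotypes 4 of the 9 fell (Sqle, Fdps, Sc5d and Msmo1), against 7.01% of all genes.

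Me1, which encodes the cytosolic malic enzyme that supplies NADPH for fatty acid synthesis, was the gene of the lipid pathway list that fell in WT. Its log2 signal was 8.78 and 8.95 in TG Ang-II, 9.09 in TG saline, 4.57 and 4.60 on the WT Ang-II arrays and 9.31 in WT saline. It was not well above background on both WT Ang-II arrays, where it was at least 13.4-fold lower than on the WT saline array (adjusted p = 0.000916). Me1 rests on 1 kept probe. Under Ang-II, Me1 was the only 1 of the 39 lipid pathway genes called higher in TG than in WT, while 6 were called lower. Insig1, which restrains SREBP processing, rose in TG (1.88 ± 0.26, adjusted p = 0.0161) and in WT (1.18 ± 0.26, adjusted p = 0.0483). Dlk1, which marks fat precursors, was 1.16 ± 0.13 higher in TG than in WT under Ang-II (adjusted p = 0.00869). Of 8 progenitor markers 0 passed under Ang-II within TG or within WT. Of all genes, 5.23% rose and 1.56% fell in TG, and 6.09% rose and 2.63% fell in WT. At an unadjusted p under 0.05, 3 markers were higher and 1 lower in TG, and 2 were higher and 1 lower in WT. Averaged over both genotypes, Pdgfra (0.61 ± 0.11, adjusted p = 0.0179) and Pi16 (0.60 ± 0.11, adjusted p = 0.0198) rose and Zfp423 fell (adjusted p = 0.0408), that is 2 and 1 of the 8, against 10.4% and 7.01% of all genes.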
